A study of Rattus norvegicus with 9 samples.

Results

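The mRNA of 10 aldehyde dehydrogenases was followed in rat liver: Aldh1a1, Aldh1a2, Aldh1a3, Aldh1b1, Aldh1l1, Aldh1l2, Aldh2, Aldh3a1, Aldh3a2 and Aldh8a1. They were chosen by gene symbol with earlier results of these data known, as were the gene lists and markers read beside them. All 10 had a line in the deposited table of 32883 genes, in which 19 lines carried an Aldh symbol. All 10 passed the filter on low counts in every comparison, Aldh3a1 and Aldh1a2 through the rats given the carcinogen.

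RNA-seq libraries came from the livers of 9 male Sprague-Dawley rats, 1 library per rat and 3 rats per group. Normal control rats (N1, N12 and N3) received a normal diet. DEN model rats (M13, M17 and M24) were given 0.01% diethylnitrosamine (DEN), a liver carcinogen, by weekly intraperitoneal injection. The schedule of the study ran for 16 weeks, with rats killed at more than 1 time within it. PZH administration rats (G27, G28 and G42) received the same DEN injections and were also given PZH, a traditional Chinese medicine formula. Which PZH dose each rat had, and in which week its liver was taken, is not given in the sources used here. The length of DEN exposure of each rat is thus not known. The treatment tag in the labels reads PZH for the M rats as well, so groups follow the letter in each rat's name, read with the study's methods. No rat received PZH without DEN, and whole liver was sequenced without sorting of cells.

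Aldehyde dehydrogenases oxidise aldehydes to carboxylic acids with NAD or NADP. In normal liver the family clears acetaldehyde and lipid aldehydes, serves amino acid and folate metabolism, and makes retinoic acid from retinaldehyde. In rat hepatocarcinogenesis the family is known for a class 3 enzyme, Aldh3a1, which is scarce in normal hepatocytes and appears in chemically induced liver tumours, while mitochondrial Aldh2 is a typical enzyme of the normal hepatocyte.

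DEN model livers held a different set of aldehyde dehydrogenases from normal livers. Aldh3a1 and the 3 retinaldehyde dehydrogenases (Aldh1a1, Aldh1a2 and Aldh1a3) rose, while Aldh2, Aldh3a2, Aldh8a1 and Aldh1l2 fell. PZH administration livers had more Aldh2, Aldh3a2 and Aldh8a1 mRNA than DEN model livers and less Aldh1a2. For Aldh3a1, Aldh1a1 and Aldh1a3 the comparison of PZH administration with DEN model livers did not pass the test. All 4 calls between these groups were lost when G42 or M13 was left out (0 members called). These statements rest on edgeR's quasi-likelihood test at a Benjamini-Hochberg adjusted p under 0.05 over all genes tested. Of the 10 genes, 8 were called in DEN model against normal control rats, where 45.8% of all genes tested were; 4 were called in PZH administration against DEN model rats (19.1% of all genes) and 5 in PZH administration against normal control rats (5.21%). Ranges of the 3 rats did not overlap between groups for 58.8%, 40.9% and 24.2% of all genes in these comparisons. Levels per rat are CPM, the counts scaled to an equal depth, on library sizes scaled by TMM, a factor that offsets differences in the make-up of libraries.

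Total counts per rat ranged from 14922973 to 27161496, and 3 counts corresponded to 0.125 to 0.252 CPM. Spearman's rho across genes between rats of a group was 0.947 to 0.982, and no pair of libraries was identical. TMM factors were 0.731 to 0.799 for the normal control group, 1.21 to 1.58 for the DEN model group and 0.863 to 0.941 for the PZH administration group. Scaling by library totals instead of TMM moved log2 fold changes by a median over all genes of 0.86 for DEN model against normal control rats, -0.67 for PZH administration against DEN model rats and 0.23 for PZH administration against normal control rats. Summed CPM of 8 hepatocyte markers ranged from 130420 to 141913 in normal control, from 23756 to 56372 in DEN model and from 104634 to 135050 in PZH administration rats, with no marker at 0 in any whole group. In whole liver, fewer cells of a type and less RNA per cell cannot be told apart.

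The stretch before the start of each gene is shown for the members that rose or fell in DEN model livers, so that the up- and down-going genes can be read side by side. RefSeq entries (GRCr8) were found for 7 of the 10 members. No entry was at hand for Aldh2, Aldh3a1 and Aldh1l2. Each sequence is the 250 bases before the start, 5′ to 3′ along the gene. Capitals mark letters that match a searched motif on either strand, and no matches overlapped. These GRCr8 positions belong to another build than the deposited gene positions given further on.
Aldh1a1 (GRCr8 chr1:227537370-227537619, plus strand): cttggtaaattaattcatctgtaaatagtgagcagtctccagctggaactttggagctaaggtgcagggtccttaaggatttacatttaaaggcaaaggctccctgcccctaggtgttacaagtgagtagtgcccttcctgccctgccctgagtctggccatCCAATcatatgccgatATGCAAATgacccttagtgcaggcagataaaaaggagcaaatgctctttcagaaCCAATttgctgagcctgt
Aldh1a2 (GRCr8 chr8:80758391-80758640, plus strand): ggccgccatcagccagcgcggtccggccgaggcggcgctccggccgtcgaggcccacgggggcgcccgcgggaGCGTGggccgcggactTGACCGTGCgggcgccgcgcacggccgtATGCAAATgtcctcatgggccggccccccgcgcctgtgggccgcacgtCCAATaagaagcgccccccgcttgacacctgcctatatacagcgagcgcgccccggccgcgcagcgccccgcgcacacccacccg
Aldh1a3 (GRCr8 chr1:129427644-129427893, minus strand): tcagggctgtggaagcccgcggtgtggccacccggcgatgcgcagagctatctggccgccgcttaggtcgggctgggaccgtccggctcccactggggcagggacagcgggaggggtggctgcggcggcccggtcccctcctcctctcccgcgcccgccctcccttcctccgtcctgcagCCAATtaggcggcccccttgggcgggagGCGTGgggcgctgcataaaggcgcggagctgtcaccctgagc
Aldh3a2 (GRCr8 chr10:46448336-46448585, minus strand): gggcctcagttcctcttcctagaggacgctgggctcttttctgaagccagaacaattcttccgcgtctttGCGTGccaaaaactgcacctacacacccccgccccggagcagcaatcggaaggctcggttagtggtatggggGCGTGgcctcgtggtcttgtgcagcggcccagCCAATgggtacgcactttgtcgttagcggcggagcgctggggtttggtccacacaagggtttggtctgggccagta
Aldh8a1 (GRCr8 chr1:18003257-18003506, plus strand): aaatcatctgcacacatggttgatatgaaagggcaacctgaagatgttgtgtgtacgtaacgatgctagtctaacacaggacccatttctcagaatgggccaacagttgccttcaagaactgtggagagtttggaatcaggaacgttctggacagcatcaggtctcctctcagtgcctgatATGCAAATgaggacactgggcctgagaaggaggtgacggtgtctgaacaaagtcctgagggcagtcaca

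Aldh1a1, Aldh1a2 and Aldh1a3, which rose in DEN model livers, and Aldh3a2, which fell, each held the CCAAT box (CCAAT). Aldh1b1 and Aldh1l1 held it too, so that 6 of 7 members did, against 34% of all 33469 rat promoters read over the same length. The core of the Ah receptor site (GCGTG) stood in Aldh1a2, Aldh1a3 and, at 2 places, in Aldh3a2, against 25.9% of all promoters. It therefore occurred on both sides, in genes that rose and in a gene that fell. The antioxidant response element core (TGACNNNGC) was found in Aldh1a2 and in 10.1% of promoters. No member held TATAAA, which 12.9% of promoters had, or the nuclear receptor half-site AGGTCA, which 14.1% had. The octamer ATGCAAAT was searched after the sequences had been seen. It stood 72 bases before the start in Aldh1a1, 133 bases before it in Aldh1a2 and 69 bases before it in Aldh8a1, and 1.56% of all promoters held it. A match of letters is a description and not a bound site, and these motifs were not searched outside the 250 bases.

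Aldh3a1 oxidises aromatic and medium-chain aldehydes and is the member linked to rat liver tumours. Its CPM was 0, 0.153 and 0 in the normal control rats N1, N12 and N3, from 2 counts in all. In the DEN model rats M13, M17 and M24 its CPM was 98.6, 59.6 and 146. The PZH administration rats G27, G28 and G42 had a CPM of 24.7, 194 and 53.1. Every rat given DEN thus lay far above every normal rat, and the PZH administration rats spread from below the lowest DEN model rat to above the highest. The DEN model group held 7044 counts, a ratio of CPM to normal rats of 1964 with a 95% exact counting interval of 543 to 16217. In the PZH administration group 4107 counts gave a ratio of 1498, with an interval of 414 to 12374. Both intervals cover counting error only and not the spread between rats. The fitted log2 fold change against normal rats was 10.74 (SE 0.66, adjusted p = 3.26e-05, edgeR) in DEN model and 10.53 (SE 1.18, adjusted p = 0.00374) in PZH administration rats, and with 2 counts in normal rats these sizes depend on the prior count. Between PZH administration and DEN model rats the log2 fold change was -0.15 (SE 0.67, adjusted p = 0.898, edgeR). Leaving out G28, the PZH administration rat with the highest level, moved that estimate to -1.36 (adjusted p = 0.106), and its sign was positive without G27, G42 or M24, with log2 fold changes of 0.31, 0.14 and 0.21.

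In the deposited coordinates Aldh3a1 (chr10:47490153-47499876, ENSRNOG00000002331) and Aldh3a2 (chr10:47525493-47546345, ENSRNOG00000002342) are neighbours, 25616 bases apart with 1 gene between them. Aldh3a2 encodes the microsomal fatty aldehyde dehydrogenase. Its CPM was 814, 979 and 930 in the 3 normal control rats, 252, 393 and 233 in the DEN model rats and 598, 578 and 587 in the PZH administration rats. The 3 groups did not overlap, and the PZH administration rats lay within a narrow band between the others. In DEN model rats Aldh3a2 fell by 1.61 on the log2 scale (SE 0.29, adjusted p = 0.00274, edgeR), so this pair of neighbours moved in opposite directions. It rose by 1.03 (SE 0.26, adjusted p = 0.032) from DEN model to PZH administration rats. That call was lost with library totals (log2 fold change 0.39, adjusted p = 0.168) and when any of G27, G28, G42, M13 or M24 was left out (0.89 to 1.05 in these 5 fits), and it was kept without M17 (1.28). Its log2 fold change of -0.62 between PZH administration and normal control rats did not pass the test by edgeR (adjusted p = 0.115) and did by DESeq2 (log2 fold change -0.63, adjusted p = 0.0123).

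**Figure D1:**
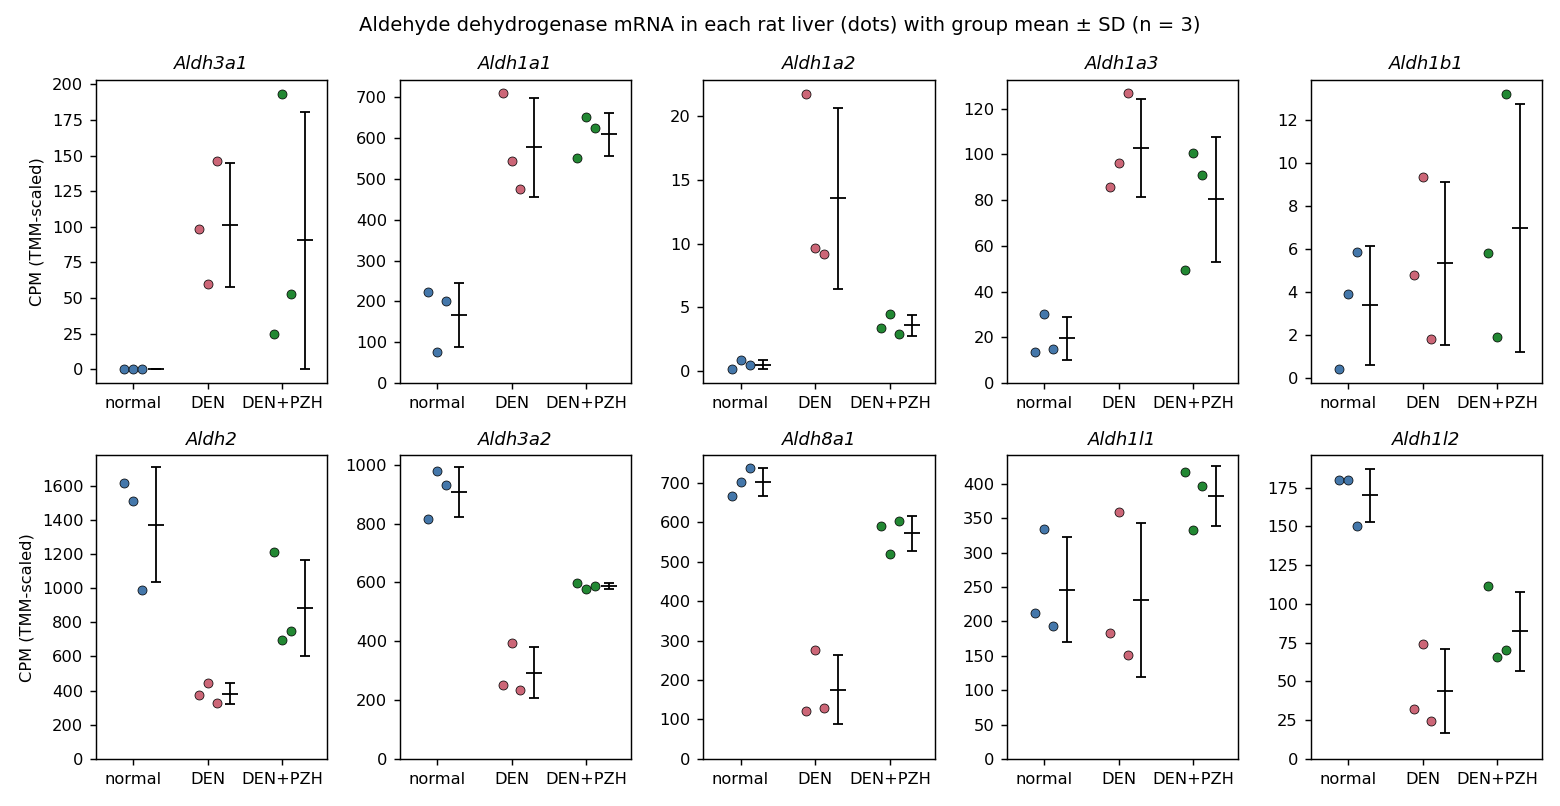
CPM of the 10 aldehyde dehydrogenases on TMM-scaled library sizes (vertical axis, linear, a scale per gene) in the normal control, the DEN model and the PZH administration group; dots are rats, and the dash with bars is the group mean ± SD over 3 rats. Aldh3a1 lies at 0 to 0.153 in normal rats and at 24.7 or more in all others, while Aldh2, Aldh3a2 and Aldh8a1 are lowest in the DEN model rats.

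The retinaldehyde dehydrogenases Aldh1a1, Aldh1a2 and Aldh1a3 make retinoic acid, the ligand of the retinoic acid receptors. Aldh1a1 is the form that adult liver normally uses. Its CPM was 223, 76.1 and 201 in normal control rats, 711, 543 and 476 in DEN model rats and 550, 652 and 624 in PZH administration rats. Every rat given DEN was above every normal rat, and the 2 groups given DEN overlapped. Aldh1a1 rose 3.51-fold in DEN model rats (log2 fold change 1.81, SE 0.40, adjusted p = 0.00654, edgeR) and by 1.87 on the log2 scale in PZH administration against normal control rats (SE 0.37, adjusted p = 0.0235). Its log2 fold change from DEN model to PZH administration rats was 0.10 with TMM and -0.57 with library totals (adjusted p = 0.799 with TMM). Aldh1a1 counts are uncertain to the extent that reads of its close paralog Aldh1a7 were shared, since the handling of multiply mapped reads is not given in the sources used here.

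Aldh1a2 is known from the embryo and from mesenchymal cells rather than from hepatocytes. Its CPM was 0.156, 0.915 and 0.503 in normal control rats, 21.8, 9.70 and 9.21 in DEN model rats and 3.41, 4.52 and 2.92 in PZH administration rats. The 3 groups were fully separate, with PZH administration rats in the middle. Aldh1a2 rose 25.6-fold in DEN model rats (log2 fold change 4.68, SE 0.58, adjusted p = 0.000558, edgeR). From DEN model to PZH administration rats it fell by 1.88 on the log2 scale (SE 0.39, adjusted p = 0.0177), and it stayed above normal control rats (log2 fold change 2.76, SE 0.56, adjusted p = 0.0259). The fall was not called without G42 or M13, and the difference from normal control rats was not called without G28, G42, N1 or N3. Markers of stellate cells and myofibroblasts moved with it: 7 of 8 rose in DEN model rats, 5 of 8 fell from DEN model to PZH administration rats, and 3 of 8 were higher in PZH administration than in normal rats. Their summed CPM was 152 to 198 in normal control, 659 to 2107 in DEN model and 331 to 410 in PZH administration rats. Over all genes 25.3% rose, 10.3% fell and 4.07% were higher in these 3 comparisons. The order of groups was not particular to stellate cells. Cholangiocyte and progenitor markers had it too, with 8 of 8 rising in DEN model rats. From DEN model to PZH administration rats 8 of 8 fell, and 7 of 8 were higher in PZH administration than in normal rats. Mesothelial markers summed to 10.6 to 39.2, 78.2 to 120 and 55.9 to 91.9 CPM in the same groups, with 2 of 6 called higher in DEN model rats (5 with library totals, 4 called by DESeq2), 1 of 6 called lower from DEN model to PZH administration rats (2 with library totals) and 0 of 6 called between PZH administration and normal control rats (edgeR, 4 of 6 at an unadjusted p under 0.05, and 1 called by DESeq2). No marker of these lists was at 0 in a whole group, and the part of these cells in the Aldh1a2 levels was not tested.

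Aldh1a3 is a retinaldehyde dehydrogenase of epithelia that is also found in several tumours. Its CPM was 13.6, 30.2 and 14.8 in normal control rats, 85.8, 96.1 and 127 in DEN model rats and 49.4, 101 and 90.8 in PZH administration rats. All rats given DEN exceeded all normal rats, and G27 was the lowest of them. It rose 5.31-fold in DEN model rats (log2 fold change 2.41, SE 0.33, adjusted p = 0.000872, edgeR) and 4.12-fold in PZH administration rats (log2 fold change 2.04, SE 0.37, adjusted p = 0.0177), both against normal control rats. The log2 fold change of -0.34 from DEN model to PZH administration rats did not pass the test (SE 0.29, adjusted p = 0.436), although with library totals it did and Aldh1a3 was then called lower. Cholangiocyte and progenitor markers summed to 32.3 to 43.9 CPM in normal control, 297 to 818 in DEN model and 104 to 142 in PZH administration rats. Of these 8 epithelial markers, 8 were higher in DEN model than in normal rats, 8 were lower in PZH administration than in DEN model rats and 7 were higher in PZH administration than in normal rats. The shares of all genes were 25.3%, 10.3% and 4.07% in the same order. None was at 0 in a whole group, and their part in the Aldh1a3 levels was not tested.

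Aldh2 is the mitochondrial enzyme that removes acetaldehyde formed from ethanol. Its CPM was 1617, 1508 and 988 in normal control rats, 374, 446 and 326 in DEN model rats and 1208, 694 and 746 in PZH administration rats. DEN model rats were the lowest without overlap, and PZH administration and normal control rats overlapped, with G27 above N3. Aldh2 fell by 1.82 on the log2 scale in DEN model rats (SE 0.30, adjusted p = 0.00184, edgeR), a 3.54-fold lower level. It rose 2.36-fold from DEN model to PZH administration rats (log2 fold change 1.24, SE 0.30, adjusted p = 0.0276). That call was lost with library totals (0.57) and without G28, G42, M13 or M24 (1.39, 1.36, 1.22 and 1.14). Against normal control rats the PZH administration level had a log2 fold change of -0.62 that did not pass the test (adjusted p = 0.294).

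Aldh1b1 is the close mitochondrial relative of Aldh2 and is better known from progenitor cells and the gut. Its CPM was 0.390, 3.89 and 5.87 in normal control rats, 4.80, 9.35 and 1.83 in DEN model rats and 5.80, 1.88 and 13.2 in PZH administration rats. Low and high rats occurred in every group. No comparison of Aldh1b1 passed the test (adjusted p = 0.535, 0.724 and 0.588, edgeR), and its log2 fold change from DEN model to PZH administration rats was 0.41 with TMM and -0.16 with library totals.

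Aldh8a1 converts an intermediate of tryptophan breakdown in the kynurenine pathway. Its CPM was 665, 702 and 736 in normal control rats, 122, 276 and 129 in DEN model rats and 591, 520 and 603 in PZH administration rats. The 3 groups did not overlap, and M17 was the highest of the DEN model rats. Aldh8a1 fell by 1.98 on the log2 scale in DEN model rats (SE 0.36, adjusted p = 0.00274, edgeR). This was close to the values of Aldh1l2 and Aldh2, and the order of the 3 changed when M13, M17, M24 or N3 was left out. It rose 3.31-fold from DEN model to PZH administration rats (log2 fold change 1.73, SE 0.35, adjusted p = 0.0171), and the call was lost without G42, M13 or M24 (1.70, 1.52 and 1.55). Its log2 fold change of -0.29 between PZH administration and normal control rats did not pass the test (adjusted p = 0.482).

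M17 was also the DEN model rat with the most hepatocyte marker RNA, a summed CPM of 56372 against 33308 in M13 and 23756 in M24. Its Aldh2, Aldh3a2, Aldh8a1, Aldh1l1 and Aldh1l2 CPM were the highest of the DEN model group, and its Aldh3a1 CPM was the lowest. Aldh1b1, not a typical hepatocyte gene, was also highest in M17. CPM of Aldh1a1, Aldh1a2 and Aldh1a3 in M17 lay between those of M13 and M24. Some of these orders depend on the scaling. On the authors' FPKM, reads divided by transcript length and library size, Aldh2 was 297 in M13 and 288 in M17. Aldh1a1, Aldh1a2 and Aldh1a3 FPKM were the lowest of the DEN model group in M17 (299, 5.22 and 34.5). Of the 8 hepatocyte markers, 4 fell in DEN model rats (7 by DESeq2), 3 rose from DEN model to PZH administration rats (7 called by DESeq2) and 0 were called between PZH administration and normal control rats (edgeR, 1 at an unadjusted p under 0.05, and 1 called by DESeq2). By edgeR 20.5% of all genes fell in DEN model rats, and 8.72% rose from DEN model to PZH administration rats. The part of hepatocyte content in the levels of these members was not tested.

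Aldh1l1 and Aldh1l2 oxidise 10-formyltetrahydrofolate, the former in the cytosol and the latter in mitochondria. Aldh1l1 had a CPM of 212, 334 and 193 in normal control rats, 183, 359 and 151 in DEN model rats and 417, 333 and 397 in PZH administration rats. DEN model and normal control rats overlapped, with M17 above all normal rats. The log2 fold change of Aldh1l1 in DEN model rats was -0.08 with TMM and 0.72 with library totals (adjusted p = 0.881 with TMM, edgeR). It was 0.75 from DEN model to PZH administration rats and 0.64 against normal control rats, and neither passed the test (adjusted p = 0.156 and 0.193).

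Aldh1l2 had a CPM of 180, 180 and 150 in normal control rats, 32.5, 74.5 and 24.5 in DEN model rats and 111, 65.5 and 70.0 in PZH administration rats. All rats given DEN lay below all normal rats. Aldh1l2 fell by 1.94 on the log2 scale in DEN model rats (SE 0.39, adjusted p = 0.00439, edgeR). DESeq2 called both Aldh1l2 and Aldh3a2 lower in PZH administration than in normal control rats. By edgeR Aldh1l2 was the only one of the 10 genes called lower there (log2 fold change -1.04, SE 0.24, adjusted p = 0.0415). That call was kept with DESeq2, with no filter and without G27, and was lost with library totals, with at least 10 counts in every rat, with all 3 groups in one fit and when any of G28, G42, N1, N12 or N3 was left out (log2 fold changes of -1.10 to -0.89 in these 5 fits). The log2 fold change of 0.94 from DEN model to PZH administration rats did not pass the test (adjusted p = 0.153).

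Counted over the comparison of DEN model with normal control rats, 8 of the 10 members were called at an adjusted p under 0.05, 4 higher and 4 lower. Among the 14255 genes tested 45.8% were called, 25.3% higher and 20.5% lower, so that a call by itself was common in these livers. The median log2 fold change of the 10 genes was 0.29, against 0.03 for all genes. With library totals the same counts of members were called, and of all genes 57% were higher and 6.72% lower. The study's criteria were a log fold change beyond 2 in size and a P below 0.001. They were read here as log2 and as the unadjusted p, which its text does not specify. Aldh1a2, Aldh1a3 and Aldh3a1 met both, all higher. Aldh1a2 and Aldh3a1 passed the filter on low counts only through the rats given DEN, so any call of them could only be higher. With at least 10 counts in every rat they were not tested, and Aldh1a3 alone met the criteria. Of all genes 12.3% met them, 8.81% higher and 3.49% lower. Groups did not overlap for 8 members and for 58.8% of all genes.

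In PZH administration against DEN model rats, 4 of 10 members were called, 3 higher and 1 lower, against 19.1% of 14272 genes (8.72% higher and 10.3% lower). The median log2 fold change of the 10 genes was 0.58, against 0.01 for all genes. No member was past the study's thresholds by edgeR or by DESeq2, with 4 members at an unadjusted p under 0.05 by edgeR and 6 by DESeq2, while 2.43% of all genes were past them (1.08% higher and 1.35% lower). The groups did not overlap for 4 members and for 40.9% of all genes. The calls depended on single rats. Without G42 or without M13 no member was called (edgeR, 4 at an unadjusted p under 0.05 in each case), and 8.22% and 1.87% of all genes were. Without M24 the only call was Aldh1a2, without G28 the calls were Aldh1a2 and Aldh8a1, and without M17 there were 6, Aldh1l1 and Aldh1l2 joining the other 4 as higher. With library totals 3 were called, Aldh8a1 higher and Aldh1a2 and Aldh1a3 lower, while 3.9% of all genes were higher and 39.9% lower. Aldh2 and Aldh3a2 were then not called, with log2 fold changes of 0.57 and 0.39.

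Between PZH administration and normal control rats, 5 of 10 members were called, Aldh3a1, Aldh1a1, Aldh1a2 and Aldh1a3 higher and Aldh1l2 lower, against 5.21% of 13348 genes (4.07% higher and 1.15% lower). Aldh1a2, Aldh1a3 and Aldh3a1 were past the study's thresholds, which 2.32% of all genes were (2.16% higher and 0.165% lower). Here too Aldh1a2 and Aldh3a1 could only be called higher, given how they passed the filter. With at least 10 counts in every rat Aldh1a1 and Aldh1a3 were called, and Aldh1a3 alone was past the thresholds. The groups did not overlap for 7 members and for 24.2% of all genes. Only Aldh3a1 was called without G28 or without N1. With library totals Aldh1l2 was not called, and 6.13% of all genes were higher and 0.682% lower. Leaving out G42 kept the calls of Aldh1a3 and Aldh3a1, and leaving out N3 kept those of Aldh1a1 and Aldh3a1. The 3 comparisons share their groups in pairs and are not independent of each other.

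**Figure D2:**
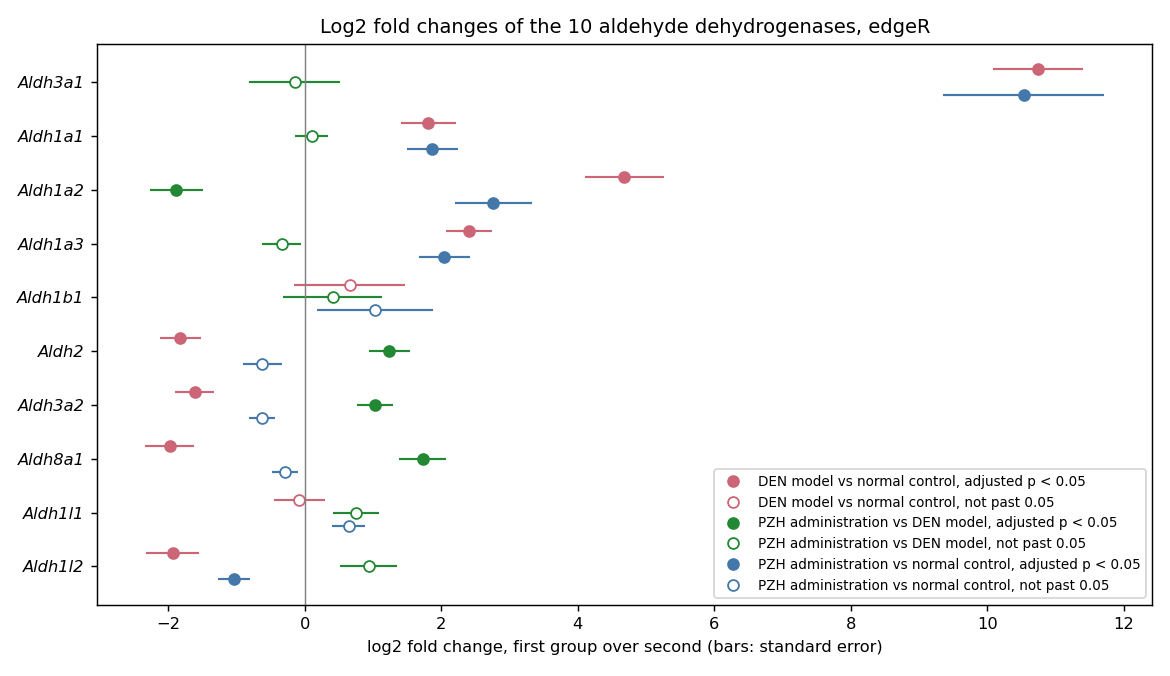
Log2 fold changes of the 10 genes by edgeR with TMM (horizontal axis, first group over second, bars are the standard error) in the 3 comparisons; filled points have an adjusted p under 0.05. Aldh3a1, Aldh1a1, Aldh1a2 and Aldh1a3 lie to the right of 0 in both comparisons with normal control rats, and Aldh2, Aldh3a2 and Aldh8a1 are filled to the left in DEN model against normal control rats and to the right in PZH administration against DEN model rats. With library totals the open points of Aldh1l1 (DEN model) and of Aldh1a1 and Aldh1b1 (PZH administration against DEN model) change sign.

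Levels of different genes were compared on FPKM, which the authors had scaled for transcript length, as each gene's share of the summed FPKM of the 10 genes in a rat. Aldh2 made up 50.5% ± 7.06 (SD, n = 3) in normal control rats, 26.0% ± 0.786 in DEN model rats and 35.1% ± 8.08 in PZH administration rats. Aldh1a1 made up 5.41% ± 2.74, 33.7% ± 6.69 and 21.1% ± 3.38 in the same groups. Aldh2 was thus the most abundant of the 10 mRNAs in every normal control and PZH administration rat, and Aldh1a1 in every DEN model rat. Second place went to Aldh8a1 in each normal control rat, to Aldh2 in each DEN model rat and to Aldh1a1 in each PZH administration rat. In M17 the shares of Aldh1a1 and Aldh2 were close, 27.9% and 26.9%.

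The share of Aldh3a1 was 0.00192% ± 0.00333 in normal control, 7.80% ± 4.31 in DEN model and 4.05% ± 4.14 in PZH administration rats. In M24 it reached 12.4%, behind only Aldh1a1 and Aldh2. Aldh8a1 held 18.4% ± 3.21, 8.14% ± 3.06 and 16.1% ± 1.55, and Aldh3a2 held 15.9% ± 2.76, 9.17% ± 1.62 and 11.01% ± 0.749. The 3 retinaldehyde dehydrogenases together made up 2.90% to 7.74% of the FPKM in normal control rats, 31.6% to 45.4% in DEN model rats and 18.3% to 25.9% in PZH administration rats. These ranges did not overlap between any of the groups. The summed FPKM itself was 904 to 1225 in normal control, 1062 to 1171 in DEN model and 1174 to 1254 in PZH administration rats, on the library-total scale.

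Set against Aldh2 in the same rat, the FPKM of Aldh1a1 was 0.117, 0.0429 and 0.173 of that of Aldh2 in the normal control rats, 1.62, 1.04 and 1.24 in the DEN model rats and 0.387, 0.799 and 0.712 in the PZH administration rats. This ratio within a library does not depend on how libraries are scaled. The groups did not overlap, and the ratio was above 1 only in DEN model rats. The FPKM ratio of Aldh3a1 to Aldh2, the tumour-associated over the normal liver enzyme, was 0 in N1 and N3, 0.000108 in N12, 0.282, 0.143 and 0.48 in M13, M17 and M24, and 0.0219, 0.299 and 0.0763 in G27, G28 and G42. G28 lay within the DEN model range, and the other 2 PZH administration rats lay below it.

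**Figure D3:**
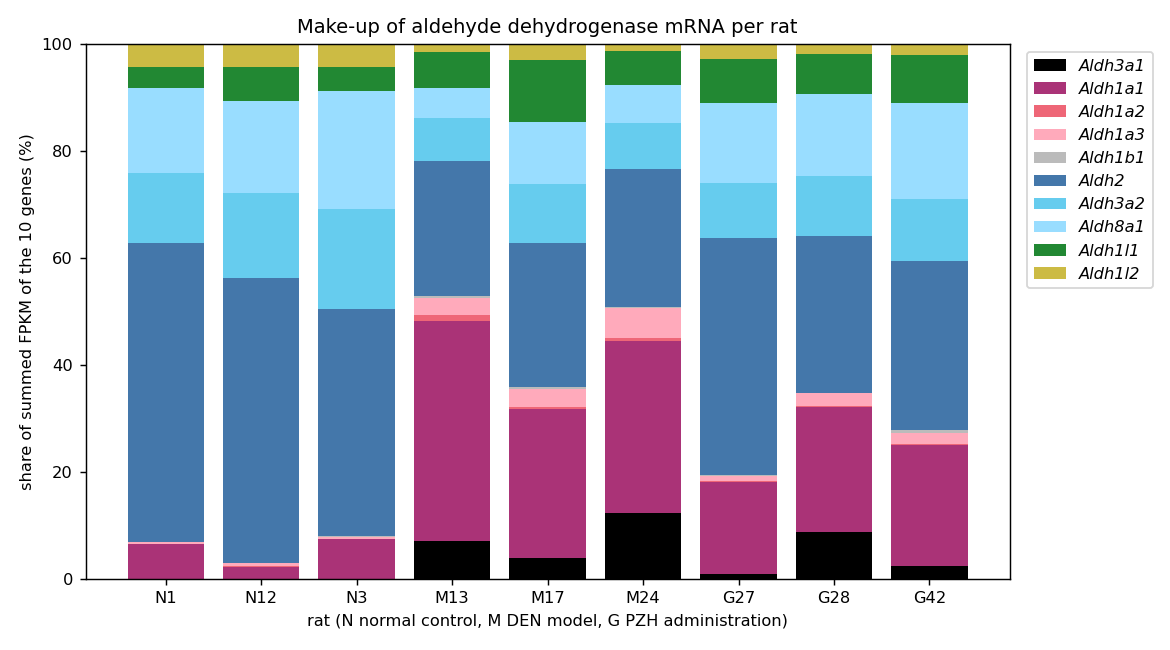
Share of each gene in the summed FPKM of the 10 aldehyde dehydrogenases (vertical axis, percent) in each of the 9 rats (horizontal axis). Aldh2 takes 42.6% to 55.9% in normal control rats and 25.3% to 26.9% in DEN model rats, where Aldh1a1 takes 27.9% to 41.0%.

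Of the other aldehyde dehydrogenases, 9 of 11 listed symbols matched the table and were tested in DEN model against normal control rats. Aldh4a1 (proline breakdown), Aldh5a1 (GABA breakdown), Aldh6a1 (valine breakdown), Aldh7a1 (lysine breakdown) and Aldh9a1 (carnitine synthesis) fell, with log2 fold changes from -1.65 (Aldh4a1) to -1.09 (Aldh5a1). Aldh3b1 rose, with a log2 fold change of 2.27 (SE 0.42, adjusted p = 0.00308, edgeR), from a mean of 1.05 to 5.07 CPM. Aldh18a1, the enzyme of proline synthesis, also rose, from 3 to 97 counts, a ratio of 18.0 with a 95% exact counting interval of 5.99 to 88.9. Aldh1a7 and Aldh16a1 were not called (log2 fold change 2.48 and -0.54, adjusted p = 0.0653 and 0.0692). From DEN model to PZH administration rats Aldh5a1, Aldh6a1 and Aldh9a1 rose, by 1.28, 1.39 and 1.19 on the log2 scale, and Aldh3b1 fell by 1.51, while Aldh1a7, Aldh4a1, Aldh7a1, Aldh16a1 and Aldh18a1 were not called. With library totals 3 rose and 3 fell in DEN model rats, and 2 rose and 2 fell from DEN model to PZH administration rats. Between PZH administration and normal control rats 0 of 8 tested were called (edgeR, 1 at an unadjusted p under 0.05, and 0 called by DESeq2). Aldh1a7 had a CPM of 7.77 in M17 against 228 and 185 in the other DEN model rats, while the CPM of its paralog Aldh1a1 was 543 in M17.

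Aldh3a1 is a known target of the Ah receptor, a sensor of aromatic compounds. A list of the receptor gene Ahr, its partner Arnt and other targets was therefore read beside it. In DEN model rats 3 of 7 tested genes of this list rose and 1 fell, with a median log2 fold change of -0.39. That median is the value of Ahr itself and does not describe the targets. Ahr, Arnt and the target Tiparp were not called (log2 fold changes of -0.39, -0.53 and -0.49). Of all genes tested, 25.3% rose and 20.5% fell in DEN model rats. The share called over all genes was 19.1% in PZH administration against DEN model rats. It was 5.21% in PZH administration against normal control rats. Cyp1b1 and the quinone reductase Nqo1 rose, with log2 fold changes of 5.56 (SE 0.94) and 3.77 (SE 0.37), as did Cyp1a1 with 4.11. Cyp1a2, the hepatocyte's main enzyme of this group, fell by 3.75 (SE 0.59), so the targets did not share a direction. Against DEN model rats, in PZH administration rats Cyp1a2 rose by 3.17 and Cyp1b1 and Nqo1 fell by 2.98 and 1.03, on the log2 scale. Against normal control rats, 2 of 7 were called in PZH administration rats, both higher.

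Genes of retinoid metabolism were read beside the retinaldehyde dehydrogenases. In DEN model rats 4 of 16 tested genes rose and 8 fell, with a median log2 fold change of -0.83. Of all genes tested, 25.3% rose and 20.5% fell. Dhrs9, a retinol dehydrogenase, rose by 4.55 (SE 0.72) and the retinol-binding protein Rbp7 by 2.61 (SE 0.59), whereas Rdh10, which makes the retinaldehyde that these enzymes use, fell by 1.76 (SE 0.19) and the receptor Rxrg fell by 2.09 (SE 0.34), all on the log2 scale. From DEN model to PZH administration rats 4 of 16 rose and 0 fell, where 19.1% of all genes were called (8.72% higher and 10.3% lower). Among the 4 were Rbp4, the plasma carrier of retinol, by 2.13 and Rdh10 by 1.13. With library totals 6 genes were called higher and 5 lower in DEN model rats, and 1 higher and 4 lower from DEN model to PZH administration rats. PZH administration rats had 2 of 16 higher and 1 lower than normal control rats, where 5.21% of all genes were called.

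Beside Aldh2, the list of alcohol and acetate metabolism had 1 gene of 8 higher and 5 lower in DEN model rats, with a median log2 fold change of -1.27. The share called over all genes was 45.8% there and 19.1% in PZH administration against DEN model rats. Acss1, the mitochondrial acetyl-CoA synthetase, rose by 2.89 (SE 0.38), and its cytosolic counterpart Acss2 and the alcohol dehydrogenase Adh7 fell by 1.60 (SE 0.26) and 1.54 (SE 0.25) on the log2 scale. All 3 went the other way from DEN model to PZH administration rats, with log2 fold changes of -1.74, 1.70 and 1.27, where 4 of 8 rose and 1 fell. With library totals 2 were higher and 4 lower in DEN model rats, and 4 higher and 2 lower from DEN model to PZH administration rats. In PZH administration against normal control rats 0 of 8 were called (edgeR, 1 at an unadjusted p under 0.05, and 0 called by DESeq2).

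Kynurenine pathway genes, to which Aldh8a1 belongs by function, fell in DEN model rats in 10 of 11 cases and rose in 0, with a median log2 fold change of -1.94. Of all genes 20.5% fell in DEN model rats, and 8.72% rose from DEN model to PZH administration rats. Kynu (kynureninase) fell by 3.46 (SE 0.24) and the aminotransferase Kyat3 by 2.22 (SE 0.30) on the log2 scale. From DEN model to PZH administration rats 4 of 11 rose, Kynu by 2.63 and Kyat3 by 1.44 among them. Compared with normal control rats, 2 of 11 were lower in PZH administration rats. With library totals 6 of 11 were called lower in DEN model rats and 0 against normal control in PZH administration rats (edgeR, 5 at an unadjusted p under 0.05 with TMM).

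Around Aldh1l1 and Aldh1l2, 4 of 25 genes of folate one-carbon metabolism rose in DEN model rats and 11 fell, with a median log2 fold change of -0.75. The shares over all genes were 25.3% higher and 20.5% lower. In PZH administration against DEN model rats they were 8.72% higher and 10.3% lower. Mthfd1l and Mthfd2, mitochondrial enzymes that make and handle formyltetrahydrofolate, rose by 2.98 (SE 0.45) and 2.24 (SE 0.40), while the folate carriers Slc46a1 and Slc25a32 fell by 3.15 (SE 0.17) and 2.20 (SE 0.24), all on the log2 scale. Aldh1l2, which oxidises formyltetrahydrofolate in mitochondria, was thus lower in the same livers in which Mthfd1l and Mthfd2 were higher. Levels of the folate forms were not measured. On going from DEN model to PZH administration rats 5 of 25 rose and 1 fell, with Slc46a1 and Slc25a32 higher by 1.80 and 1.38 and Mthfd1l lower by a log2 fold change of -1.29. With library totals 7 were called higher and 7 lower in DEN model rats, and 4 higher and 4 lower from DEN model to PZH administration rats. In PZH administration against normal control rats 2 of 24 were lower and 0 higher (1 and 1 with library totals).

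**Figure D4:**
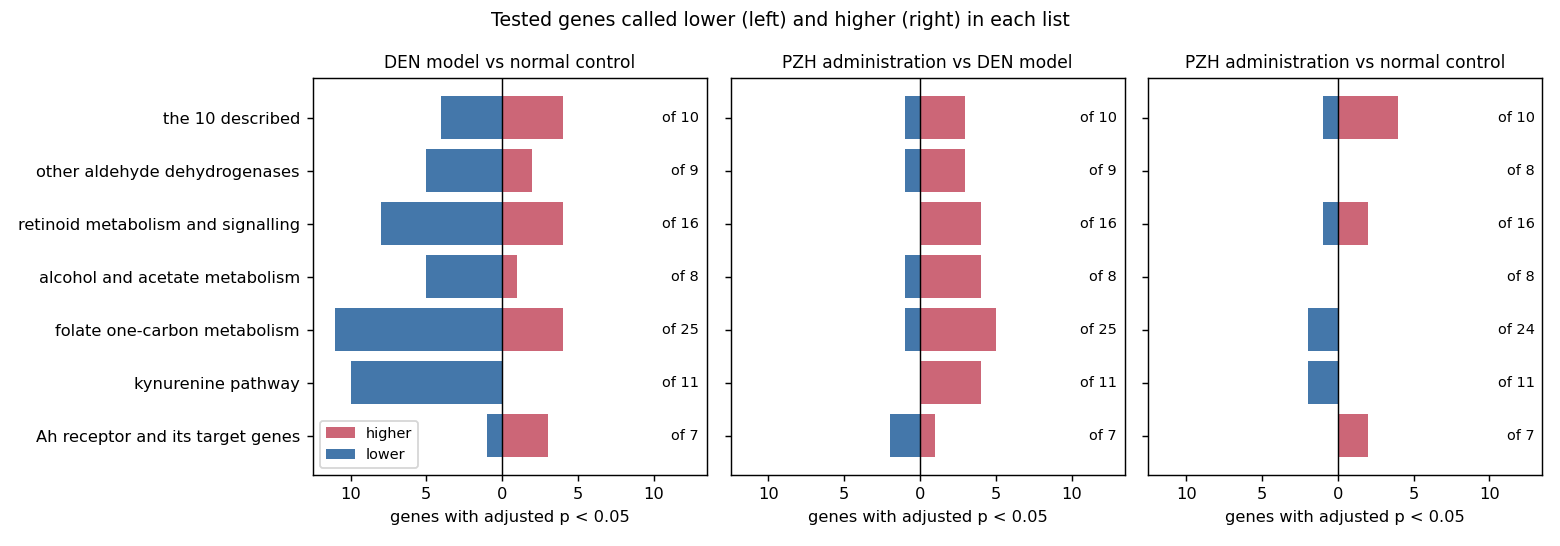
Number of tested genes called lower (left, blue) and higher (right, red) by edgeR with TMM at an adjusted p under 0.05, for the 10 genes and 6 lists in the 3 comparisons; the number tested stands at the right of each row. In DEN model against normal control rats 10 of 11 kynurenine pathway genes are lower, while 4 of the 10 described genes are higher and 4 lower. Of all genes tested, 25.3% are higher and 20.5% lower in that comparison.

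The genes with levels most like those of Aldh3a1 over the 9 rats, by Pearson's r of log2(CPM + 1), were Cenpt (r = 0.986), Smoc2 (r = 0.984) and Ms4a2 (r = 0.983). Smoc2 had a mean CPM of 3.14 in normal control, 45.3 in DEN model and 40.0 in PZH administration rats. Cenpt had means of 0, 1.39 and 1.16 CPM and Ms4a2 of 0.242, 4.65 and 4.88 CPM in these groups. Both thus lay at or near the floor of detection in normal control rats, as did Aldh3a1. Most like Aldh8a1 were Pxmp2 (r = 0.997), Dhtkd1 (r = 0.996) and Mtss1 (r = 0.995), with Pxmp2 at a mean CPM of 189, 32.6 and 139.9 in the same order of groups. The 9 points fall into 3 groups and share their libraries, so r mostly records the group means and is given as a description.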

How the data were processed

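Liver mRNA was sequenced in 9 rats, 3 per group and 1 library per rat. The deposited counts are whole numbers of reads per gene, which the authors did not normalize. The deposited FPKM values are the same reads after division by the authors by transcript length and by library size. The submitters' processing notes name fastp, HISAT2 2.1.0, StringTie 1.3.3b and edgeR 3.30.3 without their roles. The genome build and the read counter are not given in the sources used here. Columns of the authors' own comparisons (fold changes, P and Q values) were not used, and 0 other per-sample columns were left out.

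Counts were tested in R 4.3.3 with edgeR 4.0.16: filterByExpr, TMM factors and the quasi-likelihood test on the 6 rats of a comparison, with Benjamini-Hochberg adjustment over all genes tested. The names of the rats denote separate animals, so p-values measure the spread between rats. The SE of a log2 fold change is its size divided by the square root of the F statistic. With 3 rats on each side exact permutation cannot give a p below 0.1, and it was not used. The script was tested on simulated data. Ratios of low counts carry exact 95% intervals for counting error only. PCR duplicates were not identified, and 3 counts were taken as the floor of detection.

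The members, the gene lists and the markers were chosen with earlier results of these data known. Named genes were the 10 members, every other aldehyde dehydrogenase tested, the 2 genes of each pathway list with the smallest p in each direction among those called (DEN model against normal control, PZH administration against DEN model), and the 3 genes most like the members with the highest (Aldh3a1) and the lowest (Aldh8a1) log2 fold change in DEN model rats. Cyp1a1, chosen after its values were seen, was added to complete a count. The listed symbols Aldh3b2, Aldh3b3, Rdh16, Adh1, Adh5, Ugt1a6, Cd79a and Pecam1 had no match in the table. As alternatives, each rat was left out in turn, library totals replaced TMM, DESeq2 1.42.0 replaced edgeR, the filter was dropped or raised to 10 counts per rat throughout, and the 3 groups were fitted jointly. For shares of summed FPKM, TMM-scaled CPM was the alternative. Promoters came from RefSeq (GRCr8), and 33469 of them gave the motif background.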

Additional observations from a re-analysis of the deposited data

How the results depend on the processing

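In DEN model against normal control rats the same 8 members were called when any rat was left out, and 3 to 5 met the study's criteria (5 without M17). With at least 10 counts in every rat only 7 members were tested, since Aldh3a1, Aldh1a2 and Aldh1b1 dropped out. Then 1 member met the study's criteria in DEN model rats, and 2 were called and 1 met the criteria in PZH administration against normal control rats. In PZH administration against DEN model rats, leaving out a rat gave 0 to 6 called members and 0 to 1 past the study's criteria, and library totals gave 1 (Aldh1a2). Against normal control rats, leaving out a rat gave 1 to 5 called and 1 to 3 past the criteria.

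Signs turned for members that were not called. In DEN model against normal control rats, Aldh1l1 had a log2 fold change of 0.72 with library totals and 0.020 with at least 10 counts, and -0.54 to 0.21 when a rat was left out, while Aldh1b1 had -0.025 to 1.31. In PZH administration against DEN model rats, library totals gave -0.57 for Aldh1a1 and -0.16 for Aldh1b1. Leaving out a rat there gave -0.018 to 0.27 for Aldh1a1, -0.40 to 1.08 for Aldh1b1 and -1.36 to 0.31 for Aldh3a1. Of 324 refitted log2 fold changes 272 kept sign and side of the threshold, 34 lost the call, 4 gained it and 14 turned. The causes were not tested.

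Among all genes, PZH administration against DEN model gave 2722 calls, 6252 with library totals and 271 without M13. Set against normal control, PZH administration gave 696 calls, 1320 with DESeq2 and 207 without N1. Of 198 recomputed list counts 57 moved by over 1.5 times, among them the kynurenine list in DEN model rats (10 called, 6 with library totals) and, from DEN model to PZH administration, with DESeq2, the retinoid list (4 against 8), the folate list (6 against 13) and the kynurenine list (4 against 8, and 7 with all 3 groups in one fit). Against normal control rats the folate list in PZH administration rats had 2 called, 6 with DESeq2 and 4 with all 3 groups in one fit. From DEN model to PZH administration, 0 genes of the retinoid list, of the Ah receptor list and of the other aldehyde dehydrogenases were called without M13. Of 120 recomputed shares 11 moved by over 1 SD, all with TMM-scaled CPM, under which Aldh2 held 37.9%, 19.9% and 26.5% in the 3 groups. Depth limits Aldh3a1 and Aldh1a2 in normal control rats. No paired analysis was possible because the rat numbers in the labels are not shared between groups.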

Other observations

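Markers of other liver cells were read in the same rats. Of all genes 45.8% were called in DEN model against normal control rats, and 19.1% in PZH administration against DEN model rats. Lymphocyte markers rose in DEN model against normal control rats in 3 of 3 tested (summed CPM 3.36 to 5.34 in normal control, 7.32 to 35.1 in DEN model and 2.14 to 6.61 in PZH administration rats), and 0 of 3 were called from DEN model to PZH administration rats (edgeR, 2 at an unadjusted p under 0.05, and 1 called by DESeq2, while 3 were lower with library totals). Macrophage markers fell in DEN model rats in 3 of 6 (2 higher and 1 lower with library totals), with a summed CPM of 400 to 755 in normal control, 263 to 361 in DEN model and 183 to 458 in PZH administration rats. Endothelial markers were called higher in 1 of 4 and lower in 2 of 4 in DEN model rats (1 and 0 with library totals), and their summed CPM was 327 to 392, 160 to 321 and 261 to 380 in the 3 groups.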
